A study of Mus musculus with 12 samples.

Results

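The bone morphogenetic protein (BMP) genes described here are 10 mouse genes: the ligands Bmp2, Bmp4 and Bmp6, the receptors Bmpr1a and Bmpr2, the extracellular inhibitor Chrdl2, and the target genes Id1, Id2, Id3 and Id4. Every probe set that the platform annotation assigned to exactly 1 of them was taken, which gave 18 probe sets of the 20380 probe sets with a single gene (10 of 12393 genes). No member had a probe set shared with another gene in that annotation. Bmp2, Bmp4, Bmp6, Bmpr2, Chrdl2, Id1 and Id3 had 1 probe set each, Bmpr1a had 5, and Id2 and Id4 had 3 each. All 18 entered the test, and no filter on low signal was applied.

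The series compared RNA of satellite cells, the stem cells of skeletal muscle, in an activated and a quiescent state, and of cells of the same muscles that are not satellite cells. All cells came from hind limb muscles of C57BL/6J mice aged 8 to 12 weeks, and each group had 4 Affymetrix Mouse 430A arrays. Activated satellite cells (ASC) were bound by the antibody SM/C-2.6, which marks satellite cells, and were kept for 4 days in DMEM with 20% FCS and 2.5 ng/ml bFGF, after which over 99% were MyoD-positive by the labels. Quiescent satellite cells (QSC) were SM/C-2.6-positive cells taken straight after the sort, of which over 97% were Pax7-positive. Non-myogenic cells (NMC) were negative for SM/C-2.6 and for the leukocyte antigen CD45, were also taken straight after the sort, and held under 1% myogenic cells. Since culture was used for ASC only, its effect and that of the hours after sorting cannot be told apart from activation. Nothing in the labels ties the 4 arrays of a group to 4 animals or cultures, and the p-values therefore reflect the spread between these arrays, which may be technical. In bulk RNA, fewer cells of a type and less RNA per cell cannot be told apart.

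BMP ligands are secreted dimers that bind a complex of type I receptors, such as Bmpr1a, and type II receptors, such as Bmpr2, and the complex phosphorylates Smad1, Smad5 and Smad9, which enter the nucleus with Smad4. Chordin-like proteins bind the ligands outside the cell and keep them from the receptors. The Id genes are classical direct targets of the pathway: they encode helix-loop-helix proteins without a DNA-binding region, which pair with E proteins and so keep these from MyoD and the other myogenic factors, and in muscle BMP signalling is known for holding back differentiation of satellite cell descendants.

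The promoters of 4 members with called differences are shown, as examples of either direction. Bmp4, Bmp6 and Id3 were lower in ASC than in QSC, and Id2 was higher in ASC on 2 of its 3 probe sets. Bmpr1a, Bmpr2 and Id4 also had probe sets called lower in ASC than in QSC, but their promoters are not printed. Each promoter is 300 bases of RefSeq sequence on GRCm38.p6, from 250 bases before to 50 after the gene's start, written on the gene's strand. Of the 10 members, 7 were in the table of promoters, and Bmp2, Chrdl2 and Id1 were not matched. Capitals mark matches on either strand to GGCGCC, a GC-rich element bound by Smads of the BMP branch and identical on both strands, and to GTCT or its complement AGAC, the core bound by Smads. No match of one can overlap a match of the other.
Bmp4, chr14:46390620-46390919, minus strand: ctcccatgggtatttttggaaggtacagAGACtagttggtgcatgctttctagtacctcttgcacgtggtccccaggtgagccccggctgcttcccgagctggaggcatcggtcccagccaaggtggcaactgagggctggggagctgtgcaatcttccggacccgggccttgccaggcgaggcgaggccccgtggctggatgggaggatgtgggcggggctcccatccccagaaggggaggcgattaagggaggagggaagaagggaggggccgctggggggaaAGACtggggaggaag
Bmp6, chr13:38345466-38345765, plus strand: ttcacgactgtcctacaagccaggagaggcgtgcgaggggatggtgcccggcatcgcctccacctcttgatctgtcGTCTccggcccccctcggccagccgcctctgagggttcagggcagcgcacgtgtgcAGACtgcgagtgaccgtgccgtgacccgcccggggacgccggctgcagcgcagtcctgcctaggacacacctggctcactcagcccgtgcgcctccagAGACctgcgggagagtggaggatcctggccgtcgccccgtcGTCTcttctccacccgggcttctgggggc
Id2, chr12:25096043-25096342, minus strand: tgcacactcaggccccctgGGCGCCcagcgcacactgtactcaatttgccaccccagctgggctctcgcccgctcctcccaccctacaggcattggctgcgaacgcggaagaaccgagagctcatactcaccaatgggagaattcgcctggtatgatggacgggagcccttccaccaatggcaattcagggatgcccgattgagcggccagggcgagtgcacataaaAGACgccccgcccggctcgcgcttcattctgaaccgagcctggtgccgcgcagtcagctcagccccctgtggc
Id3, chr4:136143572-136143871, plus strand: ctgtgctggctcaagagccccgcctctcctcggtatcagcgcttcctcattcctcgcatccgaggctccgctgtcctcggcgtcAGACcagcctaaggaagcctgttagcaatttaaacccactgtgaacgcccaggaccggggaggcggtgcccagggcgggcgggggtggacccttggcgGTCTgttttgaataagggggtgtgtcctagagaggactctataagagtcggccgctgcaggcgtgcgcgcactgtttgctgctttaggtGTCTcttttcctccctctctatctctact
Over all 32851 promoters of the table, 11.9% held GGCGCC and 88% held GTCT or AGAC, with a median of 2 such cores. GGCGCC occurred once in the Id2 promoter and not in those of Bmp4, Bmp6 and Id3. GTCT or AGAC occurred 2 times in the Bmp4 promoter, 4 times in that of Bmp6, 1 time in that of Id2 and 3 times in that of Id3. In the promoters that are not printed, GGCGCC occurred once each for Bmpr1a, Bmpr2 and Id4, and GTCT or AGAC once for Bmpr1a and not for Bmpr2 and Id4. These matches describe the letters of the windows and are neither binding sites nor causes.

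Signals are given in arbitrary units after each array was multiplied to bring its 2% trimmed mean to 235.14. Tests were run on log2(signal + 14.696) with limma, over the 12 arrays together and allowing for the labelling kit. A difference was called where its p, adjusted by Benjamini and Hochberg's method over the 20380 probe sets, was under 0.05. All changes given are differences on this log2 scale, which makes those of low signals too small. Levels are compared between groups for 1 probe set at a time, never between probe sets. Small-sample labelling was used for 5 arrays, which were replicates 1 and 2 of ASC, replicates 1 and 2 of QSC and replicate 1 of NMC, and two-cycle labelling for the other 7.

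In ASC against QSC, 10 of the 18 probe sets were called lower, where 31.3% of all probe sets were, and 3 were called higher, where 19.7% were. The 10 belonged to 8 genes, namely all 3 ligands, both receptors, Chrdl2, Id3 and Id4, and the 3 belonged to Id1 and Id2. The arrays of both groups did not overlap for 10 of the 18 (8 lower and 2 higher in ASC), against 37.7% of all probe sets. The median change over the members was -0.58 on the log2 scale, and over all probe sets it was -0.19. In QSC against NMC, 5 of the 18 were called higher, against a background of 19.2%, and 1 was called lower, against 16%. Arrays did not overlap for 6 of the 18, against 27.8%, and the median change was 0.25, with 0.11 over all probe sets. In ASC against NMC, 3 were called higher and 6 lower, against 21.9% and 26.9% of all probe sets. Arrays did not overlap for 8 of the 18, against 41.3%, and the median change was -0.34, with -0.08 over all. The counts between QSC and NMC and between ASC and NMC are near those backgrounds, so the members are described below 1 by 1. The 3 comparisons share groups and are not independent of each other.

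**Figure D1:**
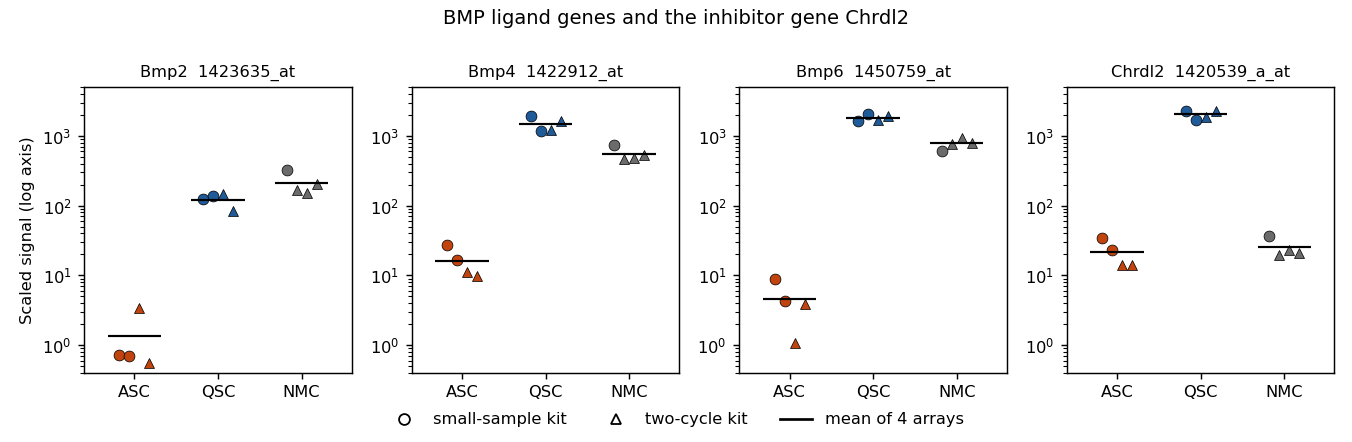
Scaled signal (arbitrary units, log axis) of Bmp2, Bmp4, Bmp6 and Chrdl2 on each of the 12 arrays, with ASC, QSC and NMC from left to right. Circles are arrays of the small-sample kit, triangles those of the two-cycle kit, and lines the mean of 4 arrays. Bmp6 lies at 1.06 to 8.91 in ASC, at 1635 to 2077 in QSC and at 612 to 934 in NMC, and Chrdl2 is high in QSC alone.

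The ligand genes and Chrdl2 had the members' most marked differences between the groups. Bmp6, a ligand that also regulates iron balance through hepcidin, had signals of 8.91, 4.22, 1.06 and 3.94 in ASC replicates 1 to 4, against 1635, 2077, 1680.3 and 1954 in QSC. NMC arrays gave 612, 779, 934 and 805. The groups did not overlap in any of the 3 comparisons, and the order was QSC, then NMC, then ASC. Bmp6 averaged 4.53 ± 3.25 in ASC and 1837 ± 213 in QSC (SD, n = 4 each), a fall by 6.60 ± 0.17 (SE) on the log2 scale (limma, adjusted p = 4.77e-11, 95% interval -6.97 to -6.23). That was the 13th largest fall of the 20380 probe sets. QSC stood above NMC by 1.22 ± 0.18 (adjusted p = 0.000133), and ASC stood below NMC with a log2 difference of -5.37 ± 0.18 (adjusted p = 7.72e-11).

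Bmp4, a ligand with wide roles in mesoderm and limb development, had signals of 27.7, 16.6, 11.1 and 9.84 in ASC, against 1917, 1188, 1208 and 1661 in QSC. In NMC the arrays gave 745, 459.9, 477 and 534. The order QSC, NMC, ASC was that of Bmp6, again with no overlap between any groups. Its means were 16.3 ± 8.13 in ASC and 1493 ± 357 in QSC (SD, n = 4 each), with a log2 difference of -5.61 ± 0.19 (limma, adjusted p = 3.24e-10). The difference of QSC from NMC was 1.31 ± 0.19 (adjusted p = 0.000174), and it was 1.00 with an adjusted p of 0.182 on the small-sample arrays alone, of which only 1 was NMC. ASC differed from NMC by -4.30 ± 0.19 (adjusted p = 1.01e-09).

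Bmp2, a ligand known for inducing bone and cartilage, had signals of 0.721, 0.703, 3.44 and 0.547 in ASC, against 124, 136, 147 and 82.7 in QSC. NMC arrays stood at 324, 169, 152 and 203. Here the order was NMC, then QSC, then ASC, so that among the member ligands Bmp2 alone had a level in NMC above that in QSC. ASC averaged 1.35 ± 1.39 and QSC 122 ± 28.2 (SD, n = 4 each), with a log2 difference of -3.07 ± 0.21 (limma, adjusted p = 8.68e-08), and the difference of ASC from NMC was -3.84 ± 0.21 (adjusted p = 6.96e-09). QSC lay below NMC by a smaller step of -0.76 ± 0.21 (adjusted p = 0.0134). That step missed the threshold without NMC replicate 1 (-0.51, adjusted p = 0.0903), without QSC replicate 4 (-0.61, adjusted p = 0.0599), with median centring (-0.68, adjusted p = 0.121), with a pseudocount of 1 (-0.78, adjusted p = 0.147) and on the two-cycle arrays alone (-0.58, adjusted p = 0.102).

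Chrdl2, which encodes a chordin-like BMP antagonist, was high in QSC and low in both other groups. Its signals were 34.9, 23.4, 14.0 and 14.1 in ASC, against 2273, 1688, 1889 and 2302 in QSC. NMC gave 36.8, 19.4, 23.3 and 21.0, which overlap the ASC arrays and lie far from every QSC array. The means were 21.6 ± 9.89 in ASC, 2038 ± 299 in QSC and 25.1 ± 7.96 in NMC (SD, n = 4 each). ASC differed from QSC by -5.85 ± 0.18 on the log2 scale (limma, adjusted p = 1.66e-10), and QSC from NMC by 5.61 ± 0.18 (adjusted p = 7.19e-10). Between ASC and NMC no difference was called (-0.23, 95% interval -0.63 to 0.16, adjusted p = 0.327). The size of these changes depends on the pseudocount where the low group is near it. With a pseudocount of 1 the changes of ASC against QSC were -8.58 for Bmp6, -6.51 for Bmp4, -5.83 for Bmp2 and -6.58 for Chrdl2. With a pseudocount of 0.2 of the trimmed mean they were -5.19, -4.58, -1.79 and -4.92 in the same order. All 4 were called in each of the 28 alternatives.

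Markers of other cells also differed between the groups. Among 15 endothelial markers, the summed signal per array was 192 to 213 in ASC, 2923 to 4723 in QSC and 13805 to 15544 in NMC, and all 15 averaged under 47.028, 0.2 of the trimmed mean, in ASC. The QSC level of the endothelial markers was 26.6% of that in NMC by the median, and Pecam1, which encodes a junction protein of the vessel lining, averaged 4.99 in ASC, 76.6 in QSC and 221 in NMC. Among 11 measured fibroblast and fibroadipogenic markers, the sum was 1499 to 1974 in ASC, 14349 to 35991 in QSC and 51946 to 99767 in NMC. In QSC against NMC, 13 of the 15 endothelial and 9 of the 11 fibroblast and fibroadipogenic markers were called lower, and none higher. Of 10 pericyte and smooth muscle markers, 7 were called lower and 1 higher in QSC than in NMC, with Notch3 at 339% of its NMC level. All 6 measured tenocyte markers were called lower. The 4 measured Schwann and glial markers summed to 82.9 to 125 in ASC, 520.1 to 1537 in QSC and 865 to 1232 in NMC. In QSC their median level was 112% of that in NMC, with 1 called lower and none higher. All 4 were called lower in ASC than in QSC. The endothelial marker Vwf stood at 152% of its NMC level in QSC. Bmp6 and Bmp4 stood at 235% and 269.5% of theirs. Bmp2 in QSC was at 57.7% of its NMC level. The 18 immediate early genes, which respond to dissociation of tissue, summed to 3931 to 7819.7 in ASC, 61310.3 to 113823 in QSC and 42366 to 76207 in NMC, and all 18 were called lower in ASC than in QSC. The part of these other cells and of the sort in the ligand differences was not tested.

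The labelled cell types were set against their markers. Pax7, the defining factor of satellite cells, averaged 90.2 in ASC, 1071 in QSC and 4.07 in NMC. Myod1, the gene of the factor by which the cultures are labelled, averaged 4629 in ASC, 1277 in QSC and 36.2 in NMC. The NMC level of the 10 satellite cell markers was 3.37% of that in QSC by the median. The part of the number of satellite cells in the members' differences was not tested. The 12 leukocyte markers summed to 224 to 286 in ASC, 268 to 854 in QSC and 356 to 708 in NMC, with Ptprc, which encodes CD45, at most 45.7 on any array. Gapdh 3'/5' ratios, a measure of how complete the labelled RNA was, averaged 1.75 ± 0.411 in ASC, 4.02 ± 0.969 in QSC and 3.87 ± 0.916 in NMC (SD, n = 4 each), and their part in the differences of ASC was not tested.

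**Figure D2:**
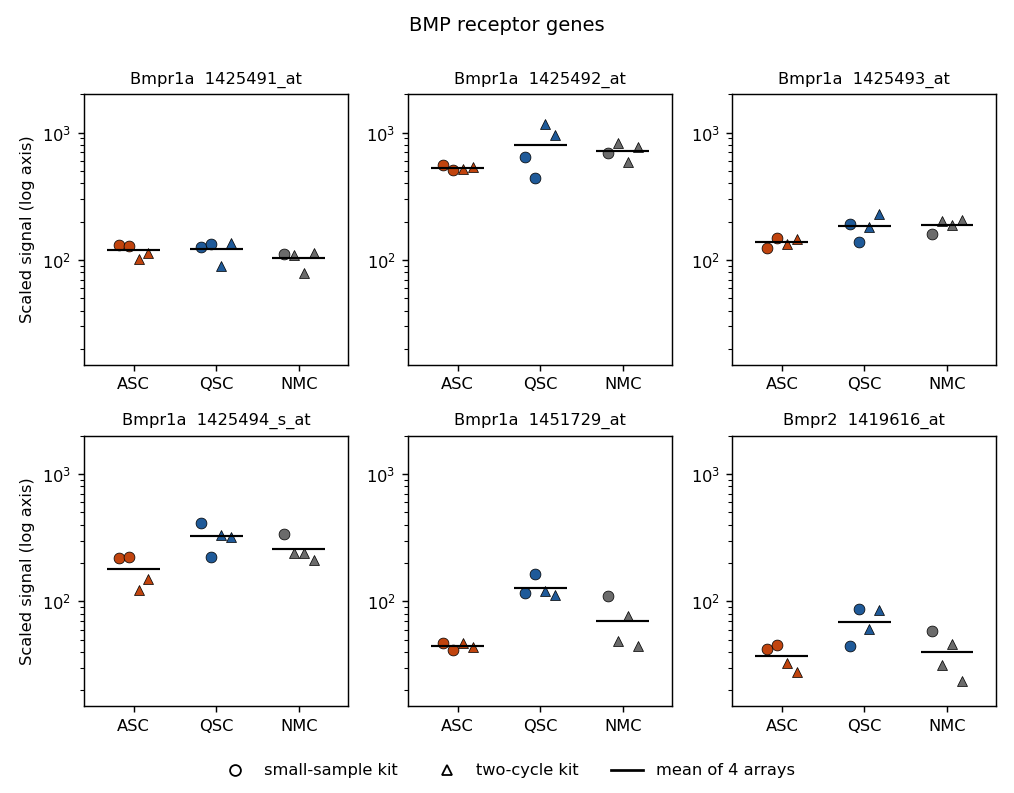
Scaled signal (arbitrary units, log axis) of the 5 Bmpr1a probe sets and the Bmpr2 probe set on each array, with ASC, QSC and NMC from left to right, symbols for the labelling kit and lines for the mean of 4 arrays. ASC and QSC overlap for 4 of the 6 probe sets, and 1451729_at separates QSC (113 to 163) from ASC (41.7 to 47.4).

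The receptor genes differed far less than the ligands, and the 5 probe sets of Bmpr1a disagreed among themselves. Bmpr1a encodes a type I receptor for Bmp2 and Bmp4. Its probe set with the highest mean, 1425492_at, read 558, 509, 521 and 533 in ASC, against 645, 437, 1161 and 953 in QSC, and 689, 825, 583 and 767 in NMC. QSC arrays spread on both sides of the ASC arrays, and no comparison was called (0.16, adjusted p = 0.614, for QSC against NMC and -0.32, adjusted p = 0.269, for ASC against NMC). Every ASC array lay below every NMC array, however. ASC against NMC was called in 2 of 28 alternatives, among them with only the 2 groups compared (-0.41, adjusted p = 0.0374). The difference of ASC from QSC was -0.49 ± 0.22 (limma, adjusted p = 0.0807), with 0.00 on the small-sample arrays and -0.98 on the two-cycle arrays (adjusted p = 0.00649), and it was also called without QSC replicate 2 (-0.70, adjusted p = 0.00804).

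The clearest of the Bmpr1a probe sets, 1451729_at, gave 47.4, 41.7, 46.9 and 44.0 in ASC, against 117, 163, 121 and 113 in QSC. NMC arrays ran at 109.7, 49.2, 76.1 and 44.5. ASC and QSC did not overlap, while NMC spanned the range from the level of ASC to just under that of QSC. The difference of ASC from QSC was -1.25 ± 0.19 (limma, adjusted p = 0.000133), and that of QSC from NMC was 0.74 ± 0.20 (adjusted p = 0.011), which was not called on unscaled signals (0.39, adjusted p = 0.153) or on the small-sample arrays alone (0.30, adjusted p = 0.591). ASC against NMC was at the threshold (-0.51 ± 0.20, adjusted p = 0.0471) and missed it in 18 of 26 alternatives. Those included leaving out ASC replicate 1, 2 or 4, QSC replicate 2, 3 or 4, or NMC replicate 1 or 3, with values from -0.57 to -0.28, and the replicate block (-0.44, adjusted p = 0.134).

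Probe set 1425494_s_at read 218, 224, 123 and 149 in ASC, against 416, 225, 332 and 323 in QSC, and 339.5, 241, 240.2 and 212 in NMC. The lowest QSC array was just above the highest ASC array. ASC was lower than QSC by a log2 difference of -0.82 ± 0.20 (limma, adjusted p = 0.0042), which was not called on unscaled signals (-0.51, adjusted p = 0.124), with median centring (-0.37, adjusted p = 0.177) or on the small-sample arrays alone (-0.45, adjusted p = 0.33). Against NMC the difference was -0.60 ± 0.21 (adjusted p = 0.0267), and with the replicate block it was -0.51 (adjusted p = 0.0644). This call was lost in 9 of 26 alternatives, among them without ASC replicate 3 (-0.48, adjusted p = 0.11), ASC replicate 4 (-0.59, adjusted p = 0.0655), NMC replicate 1 (-0.52, adjusted p = 0.11) and NMC replicate 2 (-0.60, adjusted p = 0.0512). QSC against NMC was not called (0.21, adjusted p = 0.459), except without QSC replicate 2 (0.41, adjusted p = 0.0352) and on the two-cycle arrays alone (0.48, adjusted p = 0.0497).

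The other 2 Bmpr1a probe sets had small differences. In 1425493_at, signals lay between 125 and 148 in ASC, 139 and 229 in QSC and 159 and 207 in NMC. Its difference of ASC from QSC was -0.37 ± 0.15 (limma, adjusted p = 0.0479), was not called with the replicate block (adjusted p = 0.0949) and turned to 0.07 with median centring. It was also lost without ASC replicate 1, 3 or 4, QSC replicate 1 or 4, or any 1 of the NMC arrays, at -0.37 to -0.29. Every ASC array of this probe set lay below every NMC array. Its difference of ASC from NMC was not called (-0.36, adjusted p = 0.0633), but it was in 7 of 26 alternatives. Those included leaving out ASC replicate 2 (-0.42, adjusted p = 0.0448) or QSC replicate 2 (-0.38, adjusted p = 0.0344). In 1425491_at, signals lay between 102 and 132 in ASC, 89.1 and 136 in QSC and 78.4 and 114 in NMC, with a difference of ASC from QSC of -0.01 (95% interval -0.35 to 0.32). That of ASC from NMC was 0.14 (adjusted p = 0.517), but 0.57 (adjusted p = 0.0144) with median centring and 0.44 (adjusted p = 0.0464) with quantile normalization. Averaged over its 5 probe sets, Bmpr1a differed between ASC and QSC by -0.59 ± 0.12 (limma over 12393 genes, adjusted p = 0.00122).

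Bmpr2 encodes the type II receptor. Its signals were 41.9, 45.6, 33.1 and 28.0 in ASC, against 45.0, 86.4, 60.7 and 85.1 in QSC, and 58.9, 31.9, 46.2 and 23.6 in NMC. QSC held the highest arrays, but QSC replicate 1 lay within the ASC range. The difference of ASC from QSC was -0.68 ± 0.22 (limma, adjusted p = 0.0201) and was lost in 8 of 28 alternatives, among them without ASC replicate 4 (-0.62, adjusted p = 0.0557), without QSC replicate 2 (-0.61, adjusted p = 0.0547) and without QSC replicate 4 (-0.52, adjusted p = 0.0718). QSC against NMC was not called (0.56 ± 0.22, adjusted p = 0.0669), though it was without QSC replicate 1 (0.75, adjusted p = 0.00854) and without NMC replicate 1 (0.73, adjusted p = 0.0468), and ASC against NMC was not called (-0.11, 95% interval -0.60 to 0.37).

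**Figure D3:**
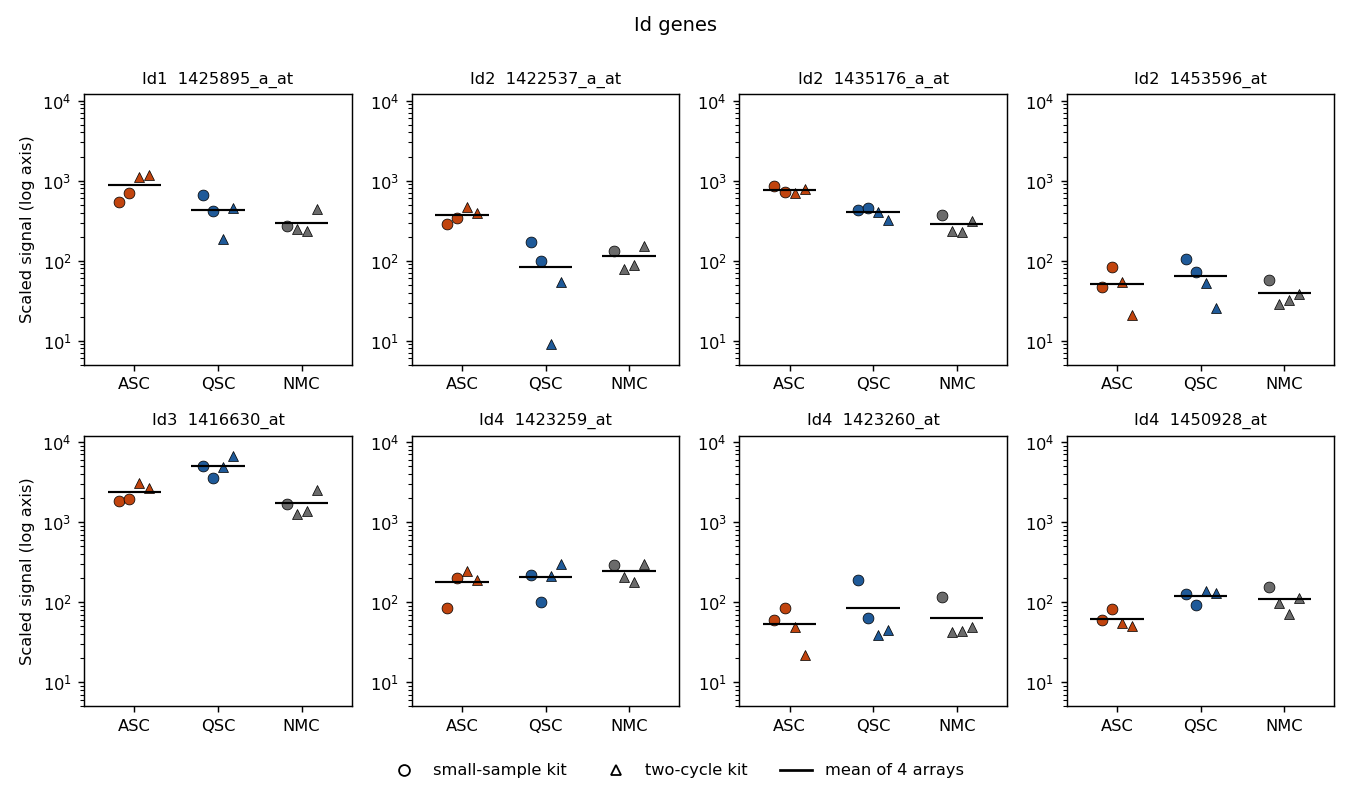
Scaled signal (arbitrary units, log axis) of the probe sets of Id1, Id2, Id3 and Id4 on each array, with ASC, QSC and NMC from left to right, symbols for the labelling kit and lines for the mean of 4 arrays. Id1 and 2 Id2 probe sets are highest in ASC, Id3 is highest in QSC (3543 to 6616), and 2 of the 3 Id4 probe sets overlap throughout.

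The 4 Id genes did not move together. Id3 was highest in QSC, with 1854, 1937, 3061 and 2652 in ASC, against 5032, 3543, 4825 and 6616 in QSC, and 1679, 1269, 1361 and 2549.7 in NMC. Every QSC array was above every array of the other groups, and ASC and NMC overlapped. ASC averaged 2376 ± 580.2 and QSC 5004 ± 1261 (SD, n = 4 each), a log2 difference of -1.07 ± 0.23 (limma, adjusted p = 0.00167). It was -0.61 (adjusted p = 0.0547) with median centring. QSC was above NMC by 1.65 ± 0.23 (adjusted p = 0.000126), with 1.32 (adjusted p = 0.0611) on the small-sample arrays alone. Between ASC and NMC the difference was not called (0.58 ± 0.23, adjusted p = 0.057), but it was in 7 of 28 alternatives, among them without NMC replicate 1 (0.75, adjusted p = 0.0382) and without NMC replicate 4 (0.75, adjusted p = 0.0141).

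Id1 was highest in ASC, with 537, 707, 1111 and 1181, against 661, 412, 187 and 454 in QSC, and 274, 247, 236 and 437 in NMC. ASC lay above every NMC array but overlapped QSC, whose replicate 1 was above ASC replicate 1. ASC averaged 884 ± 312 and QSC 429 ± 194 (SD, n = 4 each), with a log2 difference of 1.07 ± 0.35 (limma, adjusted p = 0.0224). Within kits it was 0.23 on the small-sample arrays (adjusted p = 0.591) and 1.91 on the two-cycle arrays (adjusted p = 0.00658), and the difference between the kits was 1.68 ± 0.58 (adjusted p = 0.172, not called). It was not called without ASC replicate 3 (0.93, adjusted p = 0.0679), without ASC replicate 4 (0.90, adjusted p = 0.0729) or without QSC replicate 3 (0.68, adjusted p = 0.0671). ASC were above NMC by 1.51 ± 0.36 (adjusted p = 0.00339, and 1.13 with an adjusted p of 0.0778 on the small-sample arrays alone). QSC against NMC was not called (0.43 ± 0.36, adjusted p = 0.393), except without QSC replicate 3 (0.90, adjusted p = 0.0388).

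The ASC arrays of each kit also stood apart in a gene of muscle differentiation. Myog, which encodes myogenin, had signals of 4532 and 1775 in the 2 small-sample ASC arrays and 444 and 369 in the 2 two-cycle ASC arrays. Its difference between kits in ASC against QSC was -2.21 ± 0.55 and was not called. Among these 4 ASC arrays, the 2 with more Myog had less Id1, and no link between both genes was tested. Kit and culture cannot be told apart there. None of the 18 probe sets was called by limma for a difference between kits in ASC against QSC, where 229 of all probe sets (1.12%) were, and 4 of the 18 had an unadjusted p under 0.05, as had 3477 of the 20380.

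Id2 rose in ASC on 2 of its 3 probe sets. In 1435176_a_at, the one with the highest mean, signals were 859, 714, 696 and 782 in ASC, against 426, 457, 409 and 323 in QSC, and 373, 235, 229 and 317 in NMC. All ASC arrays stood above all others, with close replicates in each group. ASC averaged 763 ± 74.3 and QSC 404 ± 57.5 (SD, n = 4 each), a log2 difference of 0.90 ± 0.16 (limma, adjusted p = 0.000335) that was nearly the same in both kits (0.81 and 0.99). ASC exceeded NMC by 1.31 ± 0.16 (adjusted p = 1.25e-05), and QSC against NMC was not called (0.41 ± 0.16, adjusted p = 0.0602), but it was without NMC replicate 1 (0.52, adjusted p = 0.0488) and without NMC replicate 4 (0.49, adjusted p = 0.0462).

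In 1422537_a_at, signals were 284, 346, 465 and 397 in ASC, against 173, 99.1, 9.09 and 54.1 in QSC, and 132, 79.1, 88.2 and 152 in NMC. ASC again lay above all others, and QSC spread widely, with replicate 3 far below the rest. The log2 difference of ASC from QSC was 2.31 ± 0.44 (limma, adjusted p = 0.000654), with 1.17 on the small-sample and 3.46 on the two-cycle arrays. ASC against NMC gave 1.47 ± 0.45 (adjusted p = 0.0144), and that call was lost without NMC replicate 1 (1.35, adjusted p = 0.0617), without ASC replicate 3 (1.19, adjusted p = 0.0671) and without ASC replicate 4 (1.29, adjusted p = 0.0579), as well as with a pseudocount of 1 (1.54, adjusted p = 0.0809) and on the small-sample arrays alone (1.16, adjusted p = 0.0729). QSC against NMC was not called (-0.84 ± 0.45, adjusted p = 0.168). That value was -0.01 on the small-sample arrays, -1.53 on the two-cycle arrays (adjusted p = 0.0279) and -0.22 without QSC replicate 3 (adjusted p = 0.671). The remaining probe set, 1453596_at, was low, between 21.2 and 83.5 in ASC, 26.0 and 104 in QSC and 28.9 and 56.8 in NMC, and was not called in any comparison (ASC against QSC -0.23, 95% interval -0.75 to 0.28).

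Id4 differed on 1 of its 3 probe sets. In 1450928_at, signals were 59.3, 82.3, 54.9 and 50.2 in ASC, against 125, 91.5, 136 and 129.6 in QSC, and 153, 98.4, 72.0 and 113 in NMC. ASC lay below every QSC array and overlapped NMC. The difference of ASC from QSC was -0.83 ± 0.20 (limma, adjusted p = 0.00374) and that from NMC was -0.72 ± 0.20 (adjusted p = 0.00969). Neither was called with median centring (-0.40 with an adjusted p of 0.14, and -0.31 with an adjusted p of 0.233), with quantile normalization (-0.49 with an adjusted p of 0.0762, and -0.34 with an adjusted p of 0.221), or on the small-sample arrays alone (-0.52 with an adjusted p of 0.171, and -0.98 with an adjusted p of 0.0716). ASC against QSC was also lost on unscaled signals (-0.55, adjusted p = 0.099), and ASC against NMC without NMC replicate 1 (-0.53, adjusted p = 0.0749).

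The Id4 probe set with the highest mean, 1423259_at, ran from 83.7 to 248 in ASC, from 99.2 to 301 in QSC and from 179 to 303 in NMC. Its difference of ASC from QSC was -0.18 (95% interval -0.86 to 0.50, adjusted p = 0.656). In 1423260_at, signals ran from 21.6 to 84.7 in ASC, from 38.8 to 187 in QSC and from 41.9 to 117 in NMC, with a difference of ASC from QSC of -0.39 (95% interval -0.96 to 0.18, adjusted p = 0.235). The intervals of both hold 0 and changes of over 0.8 downward, so a change like that of 1450928_at was within what these arrays leave possible.

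**Figure D4:**
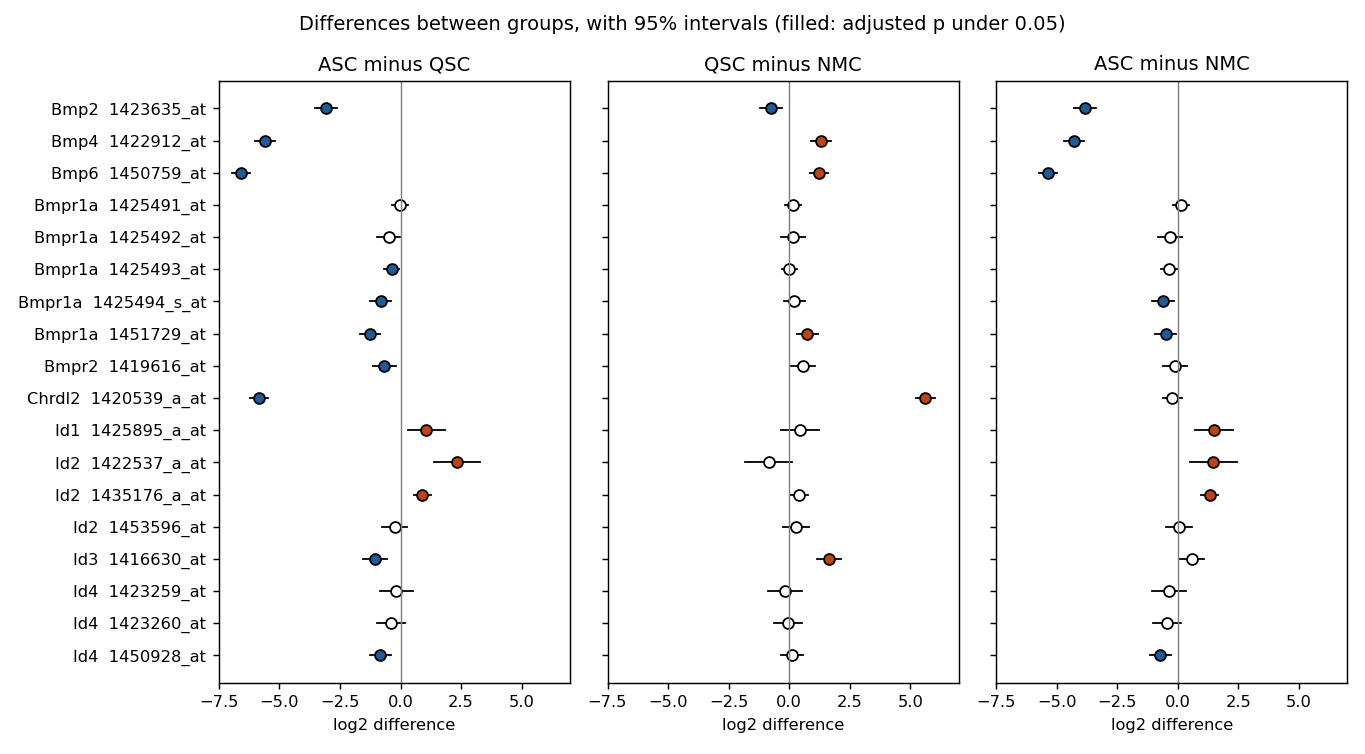
Log2 difference of each of the 18 probe sets in ASC against QSC, QSC against NMC and ASC against NMC, with 95% intervals; filled points have an adjusted p under 0.05, red for higher and blue for lower. The ligands and Chrdl2 lie between -3.07 and -6.60 in ASC against QSC, while receptor and Id probe sets lie between -1.25 and 2.31.

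Other genes of the pathway, together with 7 partners of the Id proteins, were counted by their roles, each through the probe set with the highest mean. Of 67 such genes, 54 had a probe set. The 7 partners are E protein and myogenic genes. They include Myod1, Myf5 and Myog, which also stand in the marker lists and were called higher in QSC than in NMC. Of the 54, 6 were called higher and 24 lower in ASC against QSC, with a median change of -0.42. In QSC against NMC 10 were higher and 17 lower (median -0.06), and in ASC against NMC 9 were higher and 22 lower (median -0.26). The shares called in all probe sets are those given above, and the medians over all probe sets were -0.19, 0.11 and -0.08 in the same order.

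Of 8 other ligand genes measured, 6 averaged under 47.028 in every group. None was called higher and 2 lower in ASC against QSC, and 3 were called lower and none higher in QSC against NMC. Bmp5 was the ligand with the largest difference between QSC and NMC, averaging 9.97 in QSC and 216 in NMC (-3.22 ± 0.20, limma, adjusted p = 1.06e-07), and it averaged 3.56 in ASC. Its low level in both satellite cell groups differs from the order of Bmp4 and Bmp6.

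Among 6 other receptors and co-receptors, 5 were called lower in ASC than in QSC and none higher, with a median of -1.0. Of all probe sets, 31.3% were called lower. Acvr2a gave 0.09 on the small-sample and -1.51 on the two-cycle arrays, and this difference between kits was called (-1.61, limma, adjusted p = 0.0371). Acvr1 gave -0.14 and -0.83, and its difference between kits was not called (-0.69 ± 0.34, adjusted p = 0.338). Acvrl1, Acvr2b and Eng gave -1.31, -1.95 and -1.96 on the small-sample arrays, and -1.26, -1.43 and -1.24 on the two-cycle arrays. Acvr2b, a type II receptor for activins and BMPs, averaged 26.2 in ASC, 115 in QSC and 35.0 in NMC, and was higher in QSC than in NMC by 1.39 ± 0.17 (limma, adjusted p = 3.78e-05). Acvrl1 and Eng, a type I receptor and a co-receptor typical of endothelium, were lower in QSC than in NMC by log2 differences of -2.92 and -1.78, and lower in ASC than in NMC by -4.21 and -3.38. They moved with the endothelial markers given above, and the part of endothelial cells was not tested.

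Of 9 Smads and regulators, 1 was higher and 5 lower in ASC against QSC, and 4 were higher and 1 lower in QSC against NMC. Smad7, an inhibitory Smad, averaged 241 in ASC and 156 in QSC (0.65 ± 0.25, limma, adjusted p = 0.0446), with 0.41 (adjusted p = 0.304) on the small-sample arrays alone. Skil, which encodes a Smad corepressor, averaged 3216 in QSC and 962 in NMC (1.70 ± 0.17, adjusted p = 5.14e-06). Smad9 was higher in ASC than in NMC by 0.69 ± 0.24 (adjusted p = 0.0276), at means of 17.8 and 4.33 near or below the pseudocount, and was not called on the arrays of either kit alone (adjusted p = 0.0502 and 0.302).

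Of 17 extracellular and membrane inhibitors and related proteins, none was higher and 8 were lower in ASC against QSC, and none was higher and 8 were lower in QSC against NMC. Bmp1, counted here as a related protein and not as an inhibitor, was among the 8 in each comparison (-1.28 and -1.45). Fstl1, a follistatin-like secreted glycoprotein, averaged 321 in ASC, 2291 in QSC and 7464 in NMC (-2.75 for ASC against QSC and -1.54 for QSC against NMC). Bambi, a decoy receptor, averaged 41.0 in ASC and 319 in QSC (-2.55 ± 0.28, limma, adjusted p = 5.93e-06), and Twsg1, a chordin partner, averaged 237 in ASC and 902 in QSC (-1.83 ± 0.14, adjusted p = 3.38e-07). Lower in QSC than in NMC were the ligand traps Fst (-3.12) and Chrdl1 (-2.24), so the chordin-like gene Chrdl1 went the other way from Chrdl2. In ASC against NMC, Fst (-3.20) and Chrd (-2.77), which encodes chordin, were among the largest falls.

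Of 7 other target genes, 3 were higher and 1 lower in ASC against QSC, against 19.7% and 31.3% of all probe sets. Sp7, Gata2 and Atoh8 rose by 1.09, 0.96 and 0.91 on the log2 scale. On the small-sample arrays alone Sp7 gave 0.15 (adjusted p = 0.715) and Atoh8 0.44 (adjusted p = 0.172), neither called, and on the two-cycle arrays 2.04 and 1.37. Hey1, a target shared with Notch, differed by -2.32. Atoh8, a helix-loop-helix factor, averaged 319 in ASC, 164 in QSC and 31.7 in NMC, and was called in all 3 comparisons. Msx1 was lower in QSC than in NMC (-1.91 ± 0.28, limma, adjusted p = 0.000175; -1.91 with an adjusted p of 0.119 on the small-sample arrays alone).

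**Figure D5:**
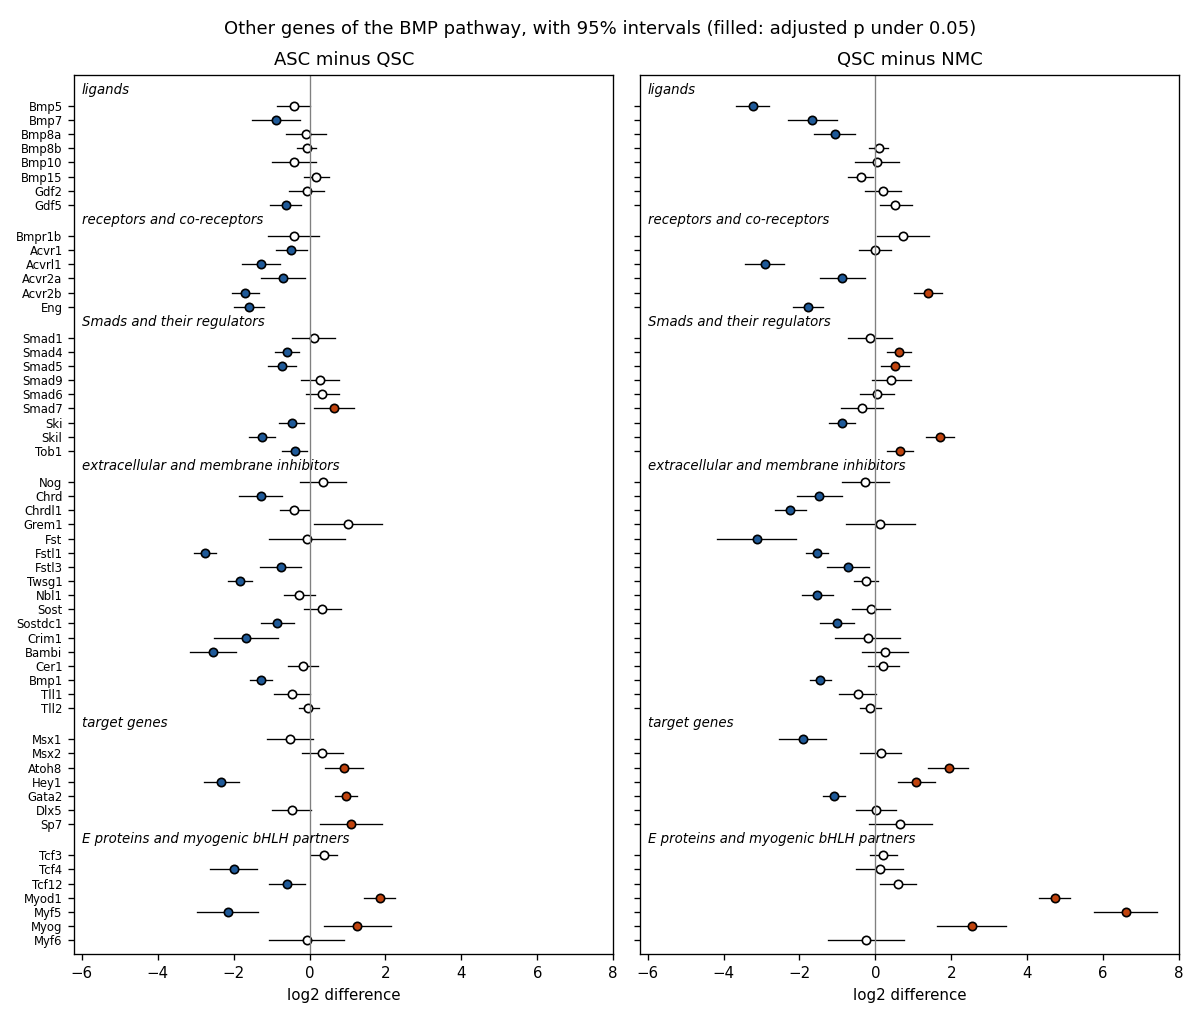
Log2 differences of the 54 measured genes by role, 7 of them partners of the Id proteins, for ASC against QSC and QSC against NMC. Each point is 1 gene, and filled points have an adjusted p under 0.05. The called genes among the inhibitors and related proteins lie below 0 in both panels. The myogenic factors Myf5 and Myod1, also in the marker lists, reach 6.60 and 4.73 in QSC against NMC.

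The genes with the profile most like each member over the 12 arrays were found by the root mean square (RMS) difference of log2 profiles, each centred on its own mean, among 7950 genes. These were the genes other than the members whose mean scaled signal over the 12 arrays was at least 47.028. A gene high in 1 group alone could pass that limit through that group. Nearest to Bmp6 was Medag (0.24), then Card10 (0.38) and Cp (0.41), and nearest to Bmp4 were Meg3 (0.26), Gpx3 (0.37) and Cp (0.40). Bmp2 was nearest to Cmpk2 (0.30), Helz2 (0.31) and Gm2a (0.32). Chrdl2 was nearest to the calcitonin receptor gene Calcr (0.54), Nap1l5 (0.70) and Prkcq (0.77). Calcr, also high in QSC alone, averaged 9.18 in ASC, 768 in QSC and 9.22 in NMC. For the Id genes the nearest were Yrdc (0.22) for Id1, Spats2 (0.12) for Id2, Hsph1 (0.19) for Id3 and Ldb1 (0.29) for Id4, and for the receptors they were Strn (0.13) for Bmpr1a and Mlh3 (0.19) for Bmpr2. These distances are not compared between members.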

How the data were processed

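RNA of 4 ASC, 4 QSC and 4 NMC samples was extracted with Qiagen columns, labelled with a small-sample kit (5 arrays) or a two-cycle kit (7 arrays) and hybridised to Affymetrix Mouse 430A arrays, per the labels' protocols. The authors deposited linear intensity values, 1 per probe set and array, made with MAS5 per the submitters' processing notes, with settings not given in the sources used here. MAS5 summarises each array alone, and the arrays' trimmed means differed by kit, so each was multiplied until its 2% trimmed mean was 235.14. The pseudocount of 14.696 is 1/16 of that mean. Detection calls were not used here, so single genes have no background limit. Precision is limited by the number of arrays.

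Gene names came from the platform annotation, and 20351 of 20380 symbols matched by Entrez ID. Not tested were 691 probe sets of more than 1 gene, 1555 without a listed gene and 64 controls. Differences come from limma 3.58.1 (R 4.3.3), using lmFit and eBayes with terms for group and kit, which leaves 8 residual degrees of freedom, after a check on simulated data. Members, gene lists and marker lists were chosen with earlier results of these data known. Named besides the members were, per comparison and direction, at most 6 pathway genes with the largest called change, of which the text gives a part, and the 3 genes nearest to a member by RMS difference, of which it gives 1 for the Id genes and receptors. Motifs were counted with Python 3.11.15 in RefSeq promoters.

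Replicate numbers are shared by the groups. The deviations of same-numbered arrays from their group means correlated at 0.156 to 0.274 for ASC and QSC, at -0.33 to 0.336 for QSC and NMC and at -0.128 to 0.371 for ASC and NMC. By the rule that every pair exceed 0.1, the numbers pair ASC with QSC, but ASC replicates 2 and 3 were not most like the QSC array of their own number. Number and kit also overlap: with the kit's effect removed the first range was -0.386 to -0.134. Removing that effect forces the deviations to balance over the groups, so the latter range cannot decide on pairing. Blocked values stand beside results whose call they change. Alternatives covered scaling, pseudocount, filter, kit, block, variances, weights, samples in the fit, gene-level summaries and leaving out each array; leaving out the 2 small-sample ASC arrays was added after the data were seen.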

Additional observations from a re-analysis of the deposited data

Results flagged for a closer look

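Of 54 sets of 4 arrays (18 probe sets in 3 groups), 3 held an array far from the other 3, whose gap to the nearest of them exceeded Dixon's 95% critical share of the group's range. Chance gives that in about 1 of 20 sets. Bmp2 in ASC read 3.44 in replicate 3 and 0.547 to 0.721 in the others, all far below the pseudocount. Bmpr1a 1425491_at read 78.4 in NMC replicate 3 and 109 to 114 in the others. Id4 1423260_at read 117 in NMC replicate 1, the small-sample NMC array, and 41.9 to 49.4 in the others.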

How the results depend on the processing

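Of 54 member results (18 probe sets in 3 comparisons), 29 kept their call in all alternatives run (28 where a probe set entered every one). Called in every one were 7 of 13 results for ASC against QSC, 2 of 6 for QSC against NMC (Bmp6 and Chrdl2) and 4 of 9 for ASC against NMC. The only called value to change sign was that of Bmpr1a 1425493_at in ASC against QSC, 0.07 with median centring. Over all probe sets, 10397 were called in ASC against QSC, 7183 in QSC against NMC and 9947 in ASC against NMC. On the small-sample arrays alone these were 6379, 1535 and 5284, with 8, 3 and 5 member probe sets called, in place of 13, 6 and 9. At the gene level they were 6798, 4754 and 6564 by the highest probe set and 6775, 4778 and 6519 by the mean, since only 12393 genes are tested; members then called by the highest probe set were 8 and 5 of 10 for ASC against QSC and ASC against NMC. Leaving out 1 array gave 9358 to 10361, 6247 to 7129 and 9063 to 10176, with 10 to 13, 5 to 7 and 6 to 10 members.

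Scaling moved the balance of directions. In ASC against QSC, 4009 were called higher and 6388 lower, against 4985 and 4135 unscaled, 6186 and 3341 with median centring and 4922 and 4204 with quantile normalization. Members called were 3 higher and 10 lower, against 3 and 6, 3 and 5 (8 in all) and 3 and 7. In QSC against NMC, 3915 were called higher and 3268 lower, against 1450 and 4740 unscaled. In ASC against NMC, 4467 were called higher and 5480 lower, against 8185 and 3489 with median centring and 5702 and 4281 with quantile normalization, with members at 3 and 6, against 5 and 3 and 4 and 3. The median of all probe sets in ASC against QSC was -0.19, and 0.12 with median centring. The cause was not tested.

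With the replicate block in place of the kit term, 9233, 6572 and 8976 probe sets were called, with 12, 6 and 7 members, and no call was changed other than the 3 of Bmpr1a given above. Without the 2 small-sample ASC arrays, an alternative chosen after seeing the data, the counts were 8323, 7172 and 9113, with 12, 6 and 8 members. Low signals limit Bmp2, Bmp4, Bmp6 and Chrdl2 in ASC, whose values lie near or below the pseudocount.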

Other observations

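The partners of the Id proteins, 7 E protein and myogenic genes, form a list of their own within the 54 genes above. In ASC against QSC, 2 were higher and 3 lower, against 19.7% and 31.3% of all probe sets. In QSC against NMC, 3 were higher and none lower, against 19.2% and 16%. The 3 were Myod1, Myf5 and Myog. In ASC against NMC, 4 were higher and 1 lower, against 21.9% and 26.9%. Myod1, which encodes the myogenic factor MyoD, rose in ASC against QSC by 1.85 ± 0.19 on the log2 scale (limma, adjusted p = 3.01e-06). Myf5, an early myogenic factor, averaged 498 in ASC and 2642 in QSC (-2.16 ± 0.37, adjusted p = 0.00032), with -1.17 on the small-sample arrays (adjusted p = 0.0683, not called) and -3.15 on the two-cycle arrays. Tcf4, an E protein gene, averaged 469 in ASC and 1886 in QSC (-2.0 ± 0.28, adjusted p = 6.65e-05), with -1.16 on the small-sample and -2.83 on the two-cycle arrays, and this difference between kits was called (-1.67, adjusted p = 0.0483). The E protein gene Tcf3 was not called (0.39, adjusted p = 0.06).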
